A study of Mus musculus with 6 samples.

Results

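Acyl-CoA thioesterases are enzymes that cut acyl-CoA esters into a free fatty acid and coenzyme A (CoA). The genes described here are Acot1, Acot2, Acot3, Acot4, Acot7, Acot8, Acot9, Acot11, Acot12 and Acot13, chosen by symbol from a table of 26012 genes. All 10 were found and all 10 had a mean of at least 1 normalized count, the minimum for a gene to be described and tested. RNA was taken from the ventricles of male C57BL/6 mice, 8 weeks of age, in which myocardial infarction (MI) had been set by tying off the left anterior descending coronary artery. In 3 hearts a control mimic was injected into the muscle around the infarct (control hearts) and in 3 hearts a mixture of miR-19a and miR-19b mimics (miR-19 hearts), at 10 μg of RNA per heart in both groups and with a lipid-based reagent. A mimic is a short double-stranded RNA made to act as a mature miRNA would. All 6 hearts were thus infarcted and injected, and all were collected 4 days after MI. The sequenced RNA was polyadenylated and came from whole ventricular tissue, so neither the mimics themselves nor the cells that took them up were measured.

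Free fatty acids enter the cell, are activated to acyl-CoA by acyl-CoA synthetases, and then serve β-oxidation in mitochondria and peroxisomes or the synthesis of lipids. Thioesterases run the activation backwards, and so help to set the balance of acyl-CoA, free CoA and fatty acid in each compartment of the cell. The adult heart lives largely on fatty acid oxidation. Acot1 (cytosol), Acot2 (mitochondrial matrix), Acot3 and Acot4 (peroxisomes) belong to the type I enzymes, which share an α/β-hydrolase fold and several of which are known targets of the nuclear receptor PPARα. Acot7, Acot8, Acot9, Acot11, Acot12 and Acot13 belong to the type II enzymes, which have a hotdog fold and an unrelated sequence.

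The hearts differed in their content of muscle RNA, and this touches several of the values below. Reads counted on genes ranged from 19398196 to 23645308 per heart. The summed normalized counts of 12 cardiomyocyte markers ranged from 586500 to 776700 in control hearts, and were 1078000, 984800 and 360200 in miR-19 replicates 1, 2 and 3. Replicate 3 of the miR-19 group had the lowest cardiomyocyte sum of all 6 hearts and the highest sums of macrophage (97710 against 63680 to 90680 in the other hearts), neutrophil (2181 against 681.1 to 1682) and fibroblast markers (898100 against 548400 to 794300). Endothelial sums lay between 18510 and 24130. Skeletal muscle markers, by sum, were at 2282 in miR-19 replicate 1, where the other 5 hearts had 28.3 to 69.15. Adipocyte markers summed to at most 539, with Lep at 0 in every heart. In tissue RNA of this kind, fewer cells of a type and less RNA per cell cannot be told apart.

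The sequences bear on the members in 2 ways. The first is the seed of the injected miRNAs, bases 2 to 8, shown in capitals, with which a miRNA pairs to a target. The mature sequences (RefSeq, GRCm38.p6) lie at chr14:115044048-115044070 (+) for miR-19a-3p and at chr14:115044358-115044380 (+) for miR-19b-3p, and the latter also at chrX:52741991-52742013 (-).
mmu-miR-19a-3p: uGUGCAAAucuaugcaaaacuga
mmu-miR-19b-3p: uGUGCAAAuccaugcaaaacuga
The seeds were identical, and 1 base differed, U11C, counted from the 5′ end with the base of miR-19a first.

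Matches to this seed were searched as TTTGCACA, TTTGCAC or TTGCACA (the first contains the other two) in the longest annotated 3′ untranslated region (UTR) of each gene, on its own strand. Of the 10 members, 1 held a match, Acot8, with TTTGCAC at base 521 of 611. In the transcript of Acot8 with the longest coding sequence, 963 of 1152 bases are coding, so these 611 bases belong to another transcript. Whether the match lies in the 3′ UTR of the transcript with the longest coding sequence was not checked. The UTRs searched for Acot9 (1437 bases) and Acot11 (3774 bases) likewise belong to transcripts other than those with the longest coding sequence. Among the 15866 tested genes with a 3′ UTR, 19.3% held a match. The site of Acot8, with the match in capitals, is shown because it was the only one.
Acot8 3′ UTR: gctaaaaggacTTTGCACtgccatttctg
A match is a description of the sequence, and binding was not measured.

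The second is the likeness of Acot1 and Acot2, which decides how well reads can be told apart. Their coding sequences shared 95.5% of 1239 aligned bases, with 56 substitutions and an identical run of 273 bases. The next most alike pairs of members were Acot2 and Acot3 at 84.1% and Acot1 and Acot3 at 84.0%. The middle exon of both genes, 203 bases long, differed at only 4 bases, given in capitals (GRCm38, chr12:84014379-84014581 for Acot1 and chr12:83990494-83990696 for Acot2, both on the + strand).
Acot1 exon 2: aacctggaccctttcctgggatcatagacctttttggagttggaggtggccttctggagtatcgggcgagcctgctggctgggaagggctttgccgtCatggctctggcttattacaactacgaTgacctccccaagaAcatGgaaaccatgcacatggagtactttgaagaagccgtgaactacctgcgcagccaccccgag
Acot2 exon 2: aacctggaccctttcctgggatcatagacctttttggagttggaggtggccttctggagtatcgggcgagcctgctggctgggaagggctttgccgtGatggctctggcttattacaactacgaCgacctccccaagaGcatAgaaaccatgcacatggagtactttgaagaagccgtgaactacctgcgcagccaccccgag

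Of the windows of 150 bases, the length of 1 read, in the Acot1 transcript, 263 of 2123 (12.4%) were also found in a transcript of another gene (Acot2, Acot3, Acot5 or 4732463B04Rik). For Acot2 the share was 209 of 2047 (10.2%), all shared with Acot1. The remaining 87.6% and 89.8% of windows told the genes apart. These windows cover the full GENCODE M21 transcript of Acot1, 2272 bases, where the length listed with the counts is 1559. The share of windows in the counted part of Acot1 was not computed and may differ from 12.4%. How the counting treated reads that fit more than 1 gene is not given in the sources used here, so the values of this pair carry that uncertainty.

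The type I genes lay side by side on the + strand of chromosome 12, in the order Acot2, Acot1, Acot4, Acot3, Acot5 and Acot6. The start of Acot1 was 21.63 kb from that of Acot2, and the end of Acot6 123.49 kb from it. The antisense gene 4732463B04Rik overlapped exons of Acot4 over 615 bases and of Acot3 over 312 bases. Acot6, which is not a member here, had 77.4, 77.1 and 93.4 normalized counts in control hearts and 90.4, 61.9 and 61.4 in miR-19 hearts. Acot5 was counted with 1 read in the 6 hearts.

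**Figure D1:**
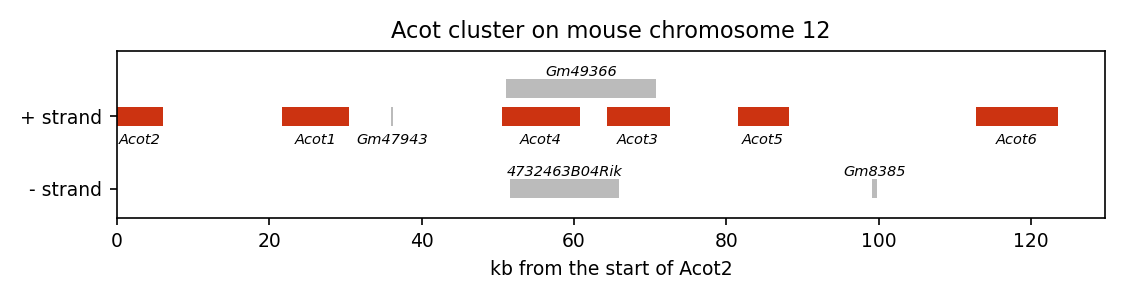
Genes of the type I cluster on mouse chromosome 12, with the distance in kb from the start of Acot2 on the x axis and the strand on the y axis. Acot genes are red and other annotated genes grey. The 6 Acot genes follow each other on the + strand, with Acot2 and Acot1 as neighbours.

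Levels of different genes were compared per kilobase of the exon length listed in the table, as normalized counts per kilobase. In control hearts Acot13 was highest, at 2116 ± 241 (SD, n = 3), followed by Acot7 at 801.5 ± 63.5, Acot9 at 499.2 ± 5.86 and Acot2 at 283.5 ± 52.0. Acot8 (112.0 ± 9.56) and Acot1 (111.3 ± 8.27) came next, and their ranges overlapped. Acot11 (47.1 ± 3.71) and Acot4 (5.61 ± 1.496) followed, and Acot12 (0.878 ± 1.28) and Acot3 (0.142 ± 0.245) were lowest, again with overlapping ranges. The other neighbours in this order did not overlap between the 3 control hearts. In miR-19 hearts the order of the means was the same except that Acot1 (194.0 ± 42.7) stood above Acot8 (115.1 ± 11.8) and Acot3 (1.48 ± 1.29) above Acot12 (1.18 ± 1.15). The length listed for Acot1, 1559 bases, is short of the 3919 bases of its merged exons in GENCODE M21. With that longer length its control level was 44.28, below Acot8 and also below the mean of Acot11, which stayed at 47.13. The listed end of Acot1, 84017670, also lies before the end of its last exon in GENCODE M21, 84018371. Reads beyond the listed end may not have been counted, so 44.28 may understate the level of Acot1 and its place in the order.

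Acot13 made up 51.8% to 55.7% of the summed level per kilobase of the 10 genes in 5 hearts and 40.7% in miR-19 replicate 3. Acot2 took 6.27% to 7.71% of that sum in control hearts, 12.5% and 10.8% in miR-19 replicates 1 and 2, and 5.50% in replicate 3. Acot1 took 2.63% to 2.89% in control hearts and 4.01% to 4.81% in miR-19 hearts, so that its share did not overlap between groups. A share moves with the other members of the sum, and the share of Acot1 in replicate 3 (4.81%) stood beside the low Acot13 of that heart.

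**Figure D2:**
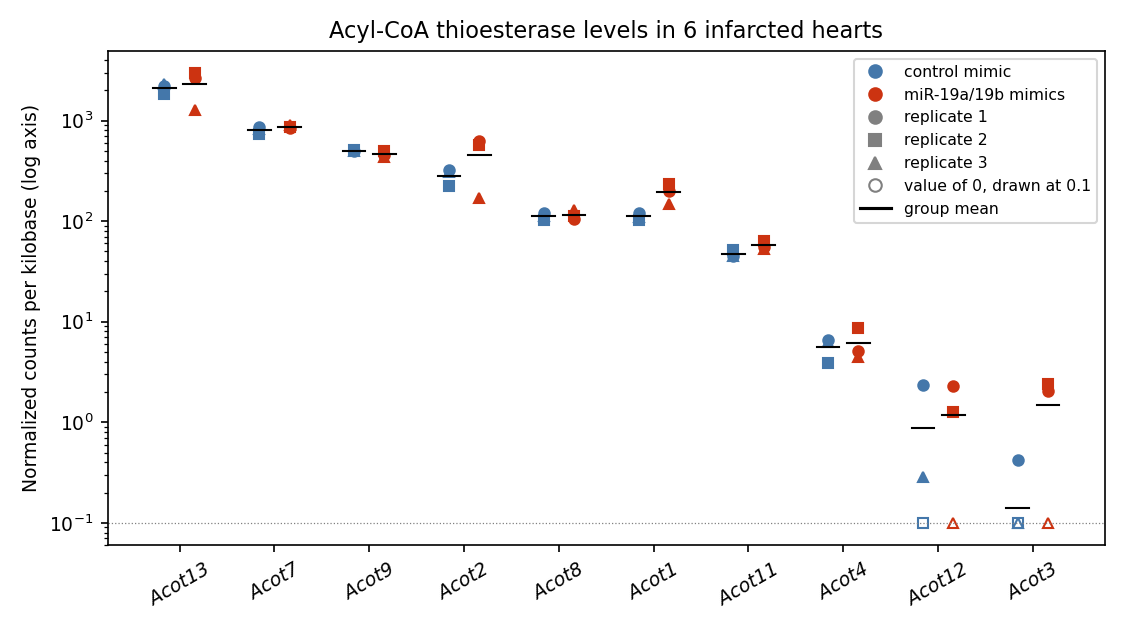
Normalized counts per kilobase (log axis) of the 10 genes in each heart, with control mimic in blue, miR-19a/19b mimics in red, replicates by marker shape and group means as bars. Values of 0 are drawn open at 0.1. Acot13 is highest in every heart, and the red triangle (replicate 3) is apart from the other red points for Acot13 and Acot2.

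Over the whole table, limma called 0 of 21126 genes higher and 0 lower in the miR-19 hearts with adjusted p-values under 0.05 (0% in both directions). Unadjusted, 293 genes were higher and 555 lower at that threshold. DESeq2 on the reads recovered from the normalized counts called 1 gene higher (0.00474%) and 28 lower (0.133%), and 0 of the 7 thioesterases to which it gave an adjusted p-value (all but Acot3, Acot4 and Acot12). Of the 10 thioesterases, 0 passed at the adjusted threshold, and 1, Acot1, passed without adjustment, against a background of 1.39% of genes on the higher side. For 2 members, Acot1 and Acot11, the groups did not overlap, both higher, against 3.90% of all genes tested, and for 0 on the lower side, against 5.30% (9.20% in either direction). Of the 10, 9 had a higher mean of log2 values in miR-19 hearts, and Acot9 a lower one, where 49.2% of all genes tested had a lower one. The median log2 fold change of the 10 was 0.20, beside 0.0041 over all genes tested.

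Acot1 (ENSMUSG00000072949, chromosome 12, 84009502 to 84017670, + strand) hydrolyses long-chain acyl-CoA in the cytosol. It had 186.8, 161.0 and 172.8 normalized counts in control replicates 1, 2 and 3, and 309.9, 365.0 and 232.5 in miR-19 replicates 1, 2 and 3. All miR-19 hearts were above all control hearts, and replicate 3 was the lowest of its group. The means were 173.5 ± 12.9 and 302.5 ± 66.5 (SD, n = 3), a ratio of 1.74. The log2 fold change was 0.78 (standard error 0.17, 95% interval 0.38 to 1.17), with an unadjusted p-value of 0.00165 from limma, rank 43 of all genes tested, and an adjusted p-value of 0.791. The counts rest on 165 to 354 reads per heart, where counting alone gives an error of 5.32% to 7.79%, so the spread between miR-19 hearts was larger than counting error. Acot1 was also among the genes that the study measured again after choosing them on these libraries, so its direction here is not independent of that choice.

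Acot2 (ENSMUSG00000021226, chromosome 12, 83987861 to 83993873, + strand) hydrolyses long-chain acyl-CoA inside mitochondria. It had 702.9, 491.9 and 672.6 normalized counts in control hearts, and 1362, 1258 and 374.3 in miR-19 hearts. Replicates 1 and 2 were above every control mimic heart and replicate 3 below every one, so the groups overlapped. The means were 622.5 ± 114 and 998.1 ± 543 (SD, n = 3), and the log2 fold change was 0.49 (standard error 0.43, 95% interval -0.48 to 1.46, adjusted p = 0.9996 in limma). Between 433 and 1266 reads per heart lay behind these values.

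Acot13 (ENSMUSG00000006717, chromosome 13, 24817948 to 24831517, - strand) encodes a small long-chain acyl-CoA thioesterase found at mitochondria, also called Them2. Its normalized counts were 1577, 1332 and 1669 in control hearts, and 1925, 2130 and 909.4 in miR-19 hearts. It had the same arrangement as Acot2, with replicates 1 and 2 above and replicate 3 below all control hearts. The log2 fold change was 0.03 (95% interval -0.61 to 0.67).

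**Figure D3:**
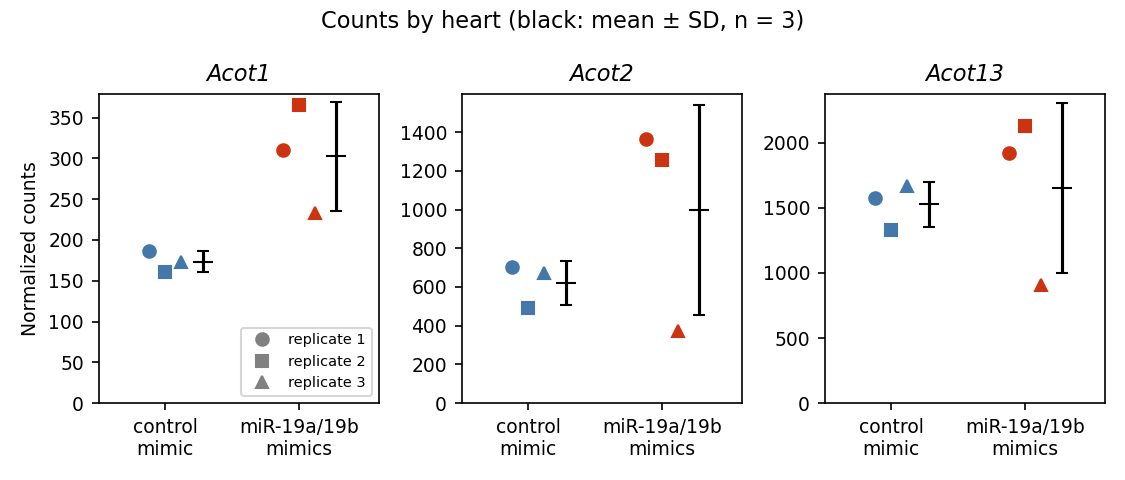
Normalized counts of Acot1, Acot2 and Acot13 in each heart, with control mimic in blue, miR-19a/19b mimics in red and the replicate given by marker shape. Black bars are the mean ± SD of 3 hearts. Replicate 3 (red triangle) is below the control hearts for Acot2 and Acot13, and above them for Acot1 at 232.5.

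The values of Acot2 and Acot13 moved with the cardiomyocyte markers from heart to heart. Relative to the mean of the control hearts, the mean log2 level of the 12 cardiomyocyte markers was 0.71, 0.63 and -0.93 in miR-19 replicates 1, 2 and 3. Acot2 stood at 1.15, 1.03 and -0.71 on the same scale, Acot13 at 0.34, 0.49 and -0.74, and Acot1 at 0.84, 1.07 and 0.42. Acot1 was thus above the control mean also in the heart whose cardiomyocyte markers were below it. Over the 6 hearts, with each profile centred on its own mean, the root mean square distance to the cardiomyocyte profile was 0.175 for Acot13, 0.207 for Acot2 and 0.499 for Acot1 on the log2 scale. Acot1 was nearer to the endothelial profile, at 0.390, and so was Acot4, at 0.273 against 0.443. Acot7, Acot8, Acot9 and Acot11 were at 0.103 to 0.195 from the endothelial and 0.520 to 0.625 from the cardiomyocyte profile. The same genes were also at 0.162 to 0.267 from the fibroblast, 0.172 to 0.291 from the macrophage and 0.292 to 0.416 from the adipocyte profile. Endothelial sums varied little between hearts (18510 to 24130), so a gene that varies little lies near that profile whatever its cell type. These distances describe 6 libraries that share their depth and tissue makeup. In the fit of all 6 hearts 0 of the 12 cardiomyocyte markers passed the adjusted threshold. Since 0 of all 21126 genes passed there, this does not show that the groups had a like cardiomyocyte content.

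**Figure D4:**
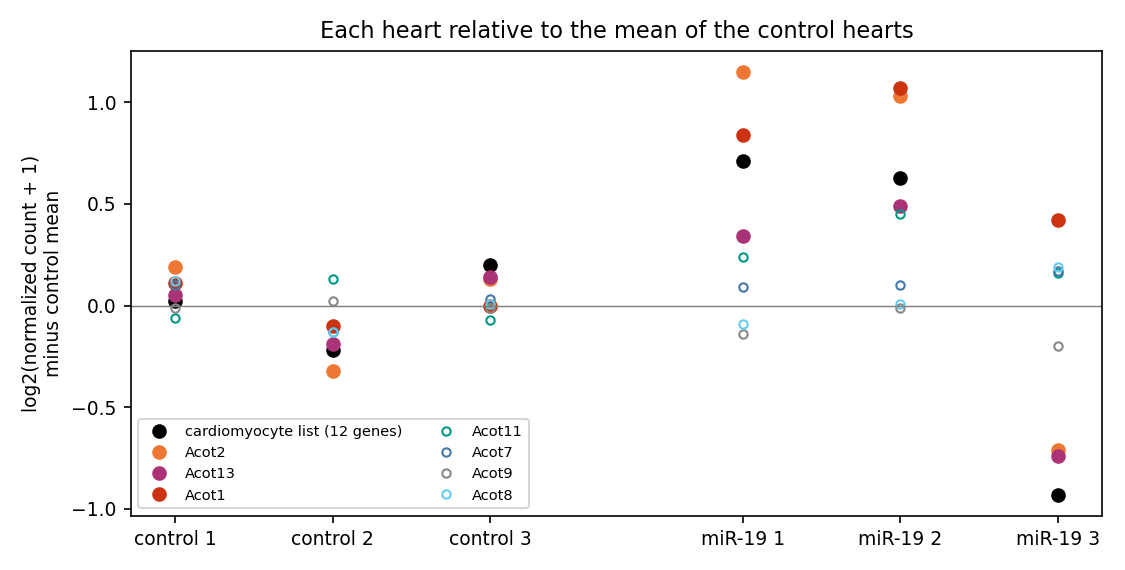
Log2(normalized count + 1) minus the mean of the control hearts, for each of the 6 hearts on the x axis. Filled points are the mean of 12 cardiomyocyte markers (black), Acot2 (orange), Acot13 (purple) and Acot1 (red), and open circles Acot11, Acot7, Acot9 and Acot8. In miR-19 replicate 3 the black, orange and purple points are at -0.93, -0.71 and -0.74, and the red point at 0.42.

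Set against the cardiomyocyte markers of the same heart, all miR-19 hearts were above all control hearts for both Acot1 and Acot2, a measure chosen after seeing the data. The log2 level of Acot1 minus the mean log2 level of the markers was -7.43, -7.40 and -7.71 in control hearts and -7.39, -7.08 and -6.16 in miR-19 hearts, a difference of 0.64 (exact permutation test, two-sided, p = 0.1). For Acot2 the values were -5.52, -5.79 and -5.76 against -5.26, -5.30 and -5.47, a difference of 0.35 (exact permutation test, two-sided, p = 0.1). With 3 hearts against 3, no smaller p-value than 0.1 can be reached. The difference of Acot1 rested largely on replicate 3, the heart with the lowest cardiomyocyte sum: it was 0.28 without that heart, and 0.54 to 0.90 without any 1 of the others. That of Acot2 was 0.30 to 0.44 with a heart left out. For the other 8 members, Acot13 and Acot11 included, the groups overlapped on this scale. The share of all genes without overlap on this scale was not computed. Without the markers it was 3.90% on the higher side. The Acot1 value nearest to the control hearts, -7.39 in replicate 1, was 0.01 above the highest of them.

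With the mean log2 level of the cardiomyocyte markers as a covariate in the fit across all genes, the log2 fold change of Acot1 was 0.73 (95% interval 0.47 to 0.99, adjusted p = 0.0244 in limma). This fit called 12 of 21126 genes higher (0.0568%) and 73 lower, and Acot1 was the only thioesterase among them. Acot2 had 0.33 (95% interval 0.13 to 0.53, adjusted p = 0.197) and Acot13 -0.07 (95% interval -0.24 to 0.10).

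Without miR-19 replicate 3, the log2 fold change of Acot1 was 0.95 (95% interval 0.65 to 1.26, adjusted p = 0.0101 in limma) and that of Acot2 1.09 (95% interval 0.78 to 1.40, adjusted p = 0.00925). That fit called 361 genes higher, 1.71% of those tested, and 154 lower, with 2 of the 10 members, Acot1 and Acot2, among the higher ones. Acot13 had 0.41 (95% interval 0.17 to 0.66, adjusted p = 0.0806). In the same 5 hearts 5 of the 12 cardiomyocyte markers were called higher, with a median log2 fold change of 0.72 for the list, so Acot1 and Acot2 moved there together with heart muscle markers. The part of tissue makeup in these changes was not tested. Without replicate 1, the heart with skeletal muscle RNA, Acot1 had a log2 fold change of 0.75 and Acot2 of 0.16, and neither passed.

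**Figure D5:**
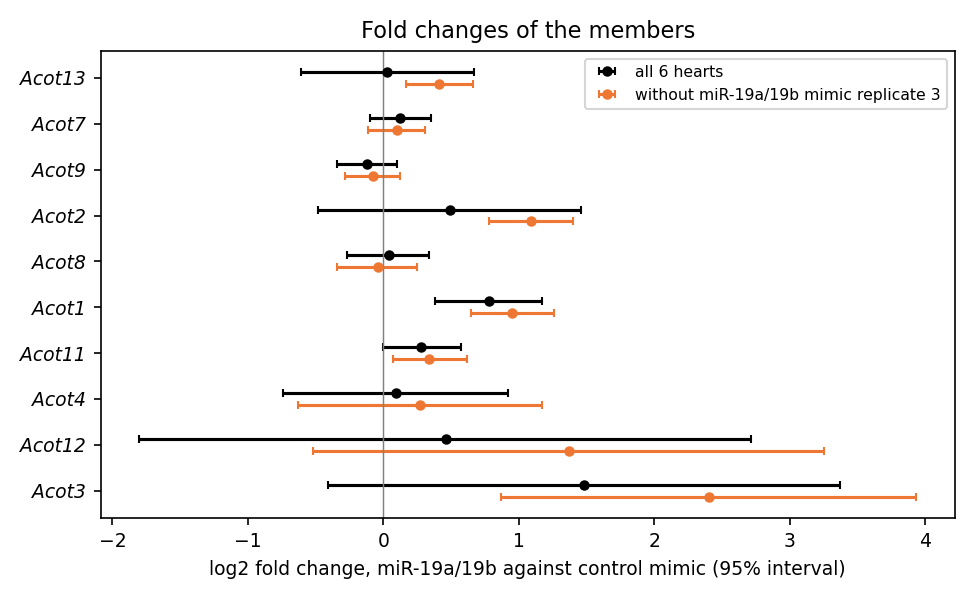
Log2 fold change of miR-19a/19b mimic against control hearts from limma, with 95% intervals, for each member (y axis), in all 6 hearts (black) and without miR-19 replicate 3 (orange). With all hearts the interval of Acot1 (0.38 to 1.17) lies above 0, and without replicate 3 that of Acot2 (0.78 to 1.40) does as well, as do those of Acot3, Acot11 and Acot13.

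Whether the near-identical pair moved apart was tested on the ratio of the genes. The log2 ratio of Acot1 to Acot2 was -1.91, -1.60 and -1.95 in control hearts and -2.13, -1.78 and -0.68 in miR-19 hearts. The difference of the means was 0.29 (exact permutation test, two-sided, p = 0.8), and the groups overlapped. Without replicate 3 the difference was -0.14 (exact permutation test, two-sided, p = 0.6). With that heart left out, no smaller p-value than 0.2 can be reached by this test. Acot1 made up 20.99%, 24.7% and 20.4% of the summed normalized counts of the pair in control hearts, and 18.5%, 22.5% and 38.3% in miR-19 hearts. The heart with the highest share of Acot1 was thus also the one with the fewest counts of the pair, 606.8, where the others held 652.9 to 1672.

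Acot11 (ENSMUSG00000034853, chromosome 4, 106744555 to 106804998, - strand), a long-chain acyl-CoA thioesterase with a lipid-binding START domain that is known from brown fat, was the other gene without overlap. It had 273.0, 311.3 and 271.9 normalized counts in control hearts and 336.8, 388.7 and 319.0 in miR-19 hearts. The gap between the groups, from 311.3 to 319.0, was narrower than the spread within each of them. The log2 fold change was 0.28 (standard error 0.13, 95% interval -0.00 to 0.57, unadjusted p = 0.0501, adjusted p = 0.9996 in limma). Acot11 shares 1263 exonic bases, 20.9% of its exons, with Fam151a on the opposite strand, and without counting by strand, reads from these bases cannot be told apart. Of the 150-base windows of its transcript, 21.7% were shared with Fam151a and 78.3% were unique to Acot11. Strand-specific counting is not stated in the sources used here.

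Acot7 and Acot9 were well counted and had narrow intervals around 0. Acot7 (ENSMUSG00000028937, chromosome 4, 152178134 to 152271855, + strand), a cytosolic enzyme that is best known from neurons, had 1819, 1555 and 1733 normalized counts in control hearts and 1810, 1825 and 1912 in miR-19 hearts, with a log2 fold change of 0.12 (95% interval -0.10 to 0.35). Acot9 (ENSMUSG00000025287, chromosome X, 155262443 to 155297654, + strand), a mitochondrial enzyme, had 1124, 1150 and 1130 in control hearts and 1026, 1127 and 984.6 in miR-19 hearts, with a log2 fold change of -0.12 (95% interval -0.34 to 0.10). The groups overlapped for both, for Acot9 by 1 heart, replicate 2 at 1127 against the lowest control value of 1124. These intervals leave out a change as large as that of Acot1 in either direction.

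Of the peroxisomal members, Acot8 and Acot4 showed no difference beyond their spread, and Acot3 is described separately below. Acot8 (ENSMUSG00000017307, chromosome 2, 164792768 to 164804882, - strand) takes a wide range of acyl-CoA chain lengths. It was the one member with a miR-19 seed match in its longest annotated 3′ UTR. Acot8 had 242.0, 204.0 and 224.2 normalized counts in control hearts and 208.7, 224.8 and 255.0 in miR-19 hearts. Its log2 fold change was 0.04 (95% interval -0.27 to 0.34), and 246 of its exonic bases overlap Snx21 on the opposite strand. Acot4 (ENSMUSG00000052392, chromosome 12, 84038379 to 84044723, + strand), known for hydrolysing succinyl-CoA, had 16.6, 9.76 and 15.9 against 12.9, 21.7 and 11.2 normalized counts, from 10 to 21 reads per heart, and a log2 fold change of 0.09 (95% interval -0.74 to 0.92). At this depth a change of the size of that of Acot1 could not be detected for Acot4.

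Acot3 and Acot12 were at the limit of detection. Acot3 (ENSMUSG00000021228, chromosome 12, 84052144 to 84059565, + strand), a peroxisomal long-chain enzyme, was counted with 1, 0 and 0 reads in control hearts and with 5, 6 and 0 in miR-19 hearts. The ratio of 11 reads to 1, after division by the size factors, was 10.8, with a 95% counting interval (exact, Clopper-Pearson) of 1.57 to 464.8 that covers counting error only. Of its 12 reads, 11 were in miR-19 replicates 1 and 2, the hearts with the highest Acot1 and Acot2. In its transcript 13.5% of the 150-base windows also occur in other genes, most often Gm49366 and 4732463B04Rik, then Acot1 and Acot5. Acot2 shared no such window with Acot3. Acot12 (ENSMUSG00000021620, chromosome 13, 91741512 to 91786148, + strand), a cytosolic acetyl-CoA hydrolase best known from liver, had 7, 0 and 1 reads against 7, 4 and 0, a ratio of 1.35 (95% counting interval 0.495 to 3.87).

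The genes with the profile most like that of Acot1 and of Acot2 over the 6 hearts were different ones, by root mean square distance among the 11608 genes with a mean of at least 100 normalized counts. The 5 nearest to Acot1 were Stmn2, a regulator of microtubules, at 0.166, then Prickle3, Lgals4, Slc26a10 and Trmt5, at 0.175 to 0.198. The 5 nearest to Acot2 were closer. They were Slc25a34, a mitochondrial carrier, at 0.0660, the adrenergic receptor Adra1b at 0.0784, the ADP-ribosyltransferase Art1 at 0.0985, Pank1, which catalyses the first step of CoA synthesis, at 0.0989, and Ptgds at 0.116. Slc25a34 had 1027, 785.6 and 1125 normalized counts in control hearts and 2083, 1877 and 561.9 in miR-19 hearts, the arrangement of Acot2. Stmn2 had 133.7, 112.2 and 116.8 against 202.3, 192.8 and 177.2, with no overlap, as Acot1.

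The rest of the acyl-CoA pathway was described by lists. In the fit of all 6 hearts 0 genes passed the adjusted threshold in any of them. Of the 7 other thioesterases listed, 4 were tested (Acot6, Baat, Them4 and Them6), with a median log2 fold change of 0.02. Of 19 acyl-CoA synthetases tested, which make the substrate of the thioesterases, 14 had a positive log2 fold change, with a median of 0.16, and 2 had an unadjusted p-value under 0.05. These were Acss3, a short-chain enzyme, with 12.2, 7.81 and 7.47 against 25.8, 23.7 and 14.7 normalized counts, and the fatty acid transporter Slc27a1, with 3270, 3078 and 3189 against 4582, 4436 and 3402. Acss3 rested on 8 to 24 reads per heart. The miR-19 hearts were above all control hearts for both, against 3.90% of all genes tested. They were so for the synthetase Slc27a2 too, at 0 to 3 reads per heart. Non-overlap was not counted over all 19. The medians were 0.06 for 16 genes of peroxisomal β-oxidation, 0.04 for 13 genes of CoA synthesis and breakdown and 0.10 for 6 acyl-CoA binding proteins, beside 0.0041 over all genes.

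PPARα binds DNA as a dimer with a retinoid X receptor and drives genes of fatty acid use together with the coactivator that Ppargc1a encodes. Of 31 PPARα targets tested other than the thioesterases, 28 had a positive log2 fold change, with a median of 0.28. Over all genes tested the median was 0.0041, and 49.2% had a lower mean in miR-19 hearts. The median of the 12 cardiomyocyte markers in the same fit was 0.155. Ehhadh, an enzyme of peroxisomal β-oxidation, had 145.9, 122.0 and 162.6 normalized counts in control hearts and 259.3, 202.1 and 129.7 in miR-19 hearts. Ech1, an isomerase of β-oxidation, had 4856, 3624 and 5679 against 8347, 10130 and 3438. The groups overlapped for both. Of the 8 PPAR receptors and coactivators tested, the median was 0.14. Ppargc1a had 1039, 740.7 and 1121 normalized counts in control hearts and 3133, 2980 and 644.0 in miR-19 hearts, again with replicate 3 below all control hearts. Its log2 fold change was 0.93 (95% interval -0.26 to 2.12, adjusted p = 0.9996 in limma), and 0.74 with the cardiomyocyte covariate (adjusted p = 0.00678).

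Without miR-19 replicate 3, where 1.71% of all genes were called higher, 14 of the 31 PPARα targets were called higher, with a median of 0.72, the same as the median of the cardiomyocyte markers in those hearts. Their log2 fold changes ran from 0.58 for Cpt2, of the carnitine shuttle, to 1.15 for Plin5, a coat protein of lipid droplets, with Ech1 at 0.99. Called in the other lists were Ppargc1a (1.68), Ppara (0.92) and Rxrg (0.83) among the receptors and coactivators, Acsl1 (0.79), Acss1 (0.67) and Slc27a1 (0.50) among the synthetases, Pank1 (0.98) and Slc25a42 (0.86) in CoA metabolism, and Eci2 (0.48) in peroxisomes. Ech1, Ppargc1a, Slc27a1 and Eci2 were among the 3 genes of their list with the smallest p-values in all 6 hearts, and the other genes were chosen after their values were seen. With the cardiomyocyte covariate and all 6 hearts, 28 of the 31 targets again had a positive log2 fold change, with a median of 0.18. There 0 of the 31 passed at the adjusted threshold and 14 were higher at an unadjusted p-value under 0.05, against 3.68% of all genes tested. Of the other genes named above, Ppargc1a passed. The part of cardiomyocyte content in these calls was not tested further.

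PPAR binding pairs, AGGTCA repeated with 1 base between the copies and up to 2 mismatches in 12 positions, were searched on both strands in the RefSeq promoters (GRCm38.p6), from 250 bases before to 50 after each start. Among the 9 members with a promoter entry, 2 held a match, Acot4 with 2 mismatches and Acot12 with 1, and Acot1 and Acot2 held none. Over 32851 promoters of 27025 genes, 3.86% of promoters held a match. The share of genes was not computed, and some genes, among them Acot3 and Acot11, have several promoters. Sequence outside these 300 bases was not searched, and no match here says nothing of the receptor. The promoters of Acot1 and Acot2 shared 48.0% of 227 aligned bases, where the coding sequences shared 95.5%. Over all pairs among Acot1, Acot2, Acot3, Acot4 and Acot5 the promoter share ran from 46.4% to 57.6%, so this pair did not stand out.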

How the data were processed

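The authors removed reads with adapters, poly-N or low quality, aligned 150-base paired reads with STAR (2.5.1b) and counted them per gene with HTSeq (0.6.0). Per the methods the differential test was edgeR, while the submitters' processing notes name DESeq2 (1.10.1) and mm9. The coordinates in the table matched GRCm38: of 25884 identifiers found in GENCODE M21, 99.94% were on the same chromosome and 82.7% had the same start and end. All 10 members overlapped their GRCm38 position, and 5 of them had the same start and end. The signal that the authors deposited is a normalized count, made by dividing read counts by a library's size factor (0.9048 to 1.1568). In each library 100% of values were whole reads within 0.001, so reads were recovered for edgeR and DESeq2. Columns with the authors' own fold changes and p-values, and a second table of 544 genes with the same values per heart, were not used.

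Since the values were normalized, the groups (from the sample titles) were compared with limma (3.58.1, R 4.3.3), trended prior, on log2(normalized count + 1), over 21126 genes with a mean of at least 1. P-values were adjusted over all of them by Benjamini and Hochberg, with a threshold of 0.05. Changes of genes with few reads are understated by this scale. Single values per heart were tested by exact permutation (scipy 1.17.1). Alternatives were edgeR (4.0.16) quasi-likelihood, DESeq2 (1.42.0), limma-voom, CPM with TMM factors, no filter, a minimum of 10 reads per heart, another pseudocount (0.1), a replicate block, the cardiomyocyte covariate, other gene lengths and leaving out single hearts. The limma step was checked on simulated counts in which no heart differed in tissue makeup, so the check does not cover that case.

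All members with a mean of at least 1 are named, up to 3 genes with the smallest p-value per pathway list, and the 5 genes nearest to Acot1 and to Acot2, with genes called without 1 heart added after their values were seen, apart from an item not reported here. Members and lists were chosen with earlier results of these data known.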

Additional observations from a re-analysis of the deposited data

How the results depend on the processing

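With 19398196 to 23645308 reads per heart and 3 hearts a group, low genes (Acot3, Acot4, Acot12) limit what can be seen, and Acot3 and Acot12 were not tested when at least 10 reads in every heart were asked for. Of 248 values recomputed, 221 kept their direction and side of the threshold or moved by less than the spread. The genes called lower numbered 28 in DESeq2, 73 with the cardiomyocyte covariate and 0 to 154 with a heart left out, and the genes called higher 1, 12 and 0 to 361. Only the fit without miR-19 replicate 3 gave calls among those that left out 1 heart. The log2 fold change of Acot1 was positive under every alternative, 0.73 with the covariate (adjusted p = 0.0244) and 0.63 to 0.95 with a heart left out. Its adjusted p-value ranged from 0.0101 without replicate 3 to 1.0, and was 0.0651 in DESeq2. That of Acot2 was 0.16 to 1.09 with a heart left out, 1.09 without replicate 3 (adjusted p = 0.00925). The direction turned for Acot4 (-0.17 to 0.27 with a heart left out, -0.14 without control replicate 2 and -0.17 without miR-19 replicate 2), Acot8 (-0.04 to 0.10, -0.03 without control replicate 2 and -0.04 without miR-19 replicate 3), Acot12 (-0.22 to 1.37, -0.22 without control replicate 2 and -0.18 without miR-19 replicate 1) and Acot13, at -0.07 with the covariate and -0.20 to 0.41 with a heart left out (-0.07 without control replicate 2, -0.13 and -0.20 without miR-19 replicates 1 and 2). The difference in the log2 ratio of Acot1 to Acot2 was -0.14 without miR-19 replicate 3, and -0.14 to 0.59 with a heart left out. Why these values moved was not tested. With the longest transcript as length, the control levels per kilobase were 1131 for Acot7, 647.6 for Acot9, 175.0 for Acot8, 66.4 for Acot1 and 2.27 for Acot4, and with the merged exons of GENCODE M21, chosen after seeing the data, 44.28 for Acot1 and 2.11 for Acot4. The lengths listed for Acot1 and Acot4, 1559 and 2508 bases, are shorter than both alternatives. If reads were counted only over the listed lengths, the values with longer ones are too low.

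Hearts with the same replicate number did not deviate together (correlations of their deviations -0.0085, -0.0213 and -0.115 across genes), so the numbers were not taken to pair the hearts. With the replicate number as a block 0 genes were called, 207 higher and 434 lower at an unadjusted p-value under 0.05, and Acot1 had a log2 fold change of 0.78 (limma, adjusted p = 1.0), Acot2 of 0.49 and the log2 ratio of Acot1 to Acot2 a difference of 0.29.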
